A study of Mus musculus with 2 samples.

Results

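The genes of small nucleolar RNAs (snoRNAs) were examined for trimethylation of lysine 4 of histone H3 (H3K4me3) in mouse neural progenitor cells. The members were all genes that the RefSeq annotation of GRCm38.p6, the assembly named mm10, lists with the biotype snoRNA on chromosomes 1 to 19. There were 1286 of them among 47042 RefSeq genes on these chromosomes. A gene was counted as marked when a called H3K4me3 peak overlapped the gene or the 1 kb on either side of it by at least 1 bp. A gene that lay whole inside a protein-coding gene, or failing that inside a long non-coding RNA (lncRNA) gene, was taken as hosted, and any other as free standing. Hosting was judged by position alone. Strands were not compared, so a hosted gene may lie on the strand opposite to its host, and it need not lie in an intron.

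The study mapped H3K4me3 by chromatin immunoprecipitation and sequencing in adult neural progenitor cells of the mouse. It has 1 H3K4me3 library, labelled "con", and 1 input library of the same cells. Both came from untreated cells kept in N2 medium with EGF and bFGF. What "con" stands for is not given, and the header of the peak list names the library after EGF. The input entered only as the background of the peak caller. Neither genotype, strain nor number of animals is given in the labels. With 1 library of each kind there is no replicate check, so every interval covers counting error over genes only, and PCR reads that carry no molecular identifier cannot be counted as separate molecules. In a culture of many cells, a mark on fewer cells and a weaker mark per cell cannot be told apart.

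SnoRNAs guide the chemical modification of ribosomal and spliceosomal RNA. Box C/D snoRNAs direct ribose methylation and box H/ACA snoRNAs direct the change of uridine to pseudouridine, and a few of each are needed to cut the ribosomal precursor. Most mammalian snoRNAs have no promoter of their own: they are trimmed out of introns of a host gene, often one for a ribosomal or nucleolar protein or a non-coding RNA of the Snhg kind. H3K4me3 lies over the starts of active and poised genes, so a peak over a hosted snoRNA can be the peak of its host.

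The peak caller worked on 18156769 filtered H3K4me3 tags and 17831241 filtered input tags, and the authors' list held 19265 peaks, the lowest with 13 tags. The fold enrichment over input and the tag count given for a peak are the authors' values for that whole peak. The neural progenitor genes Sox2, Nes, Hes1, Olig2 and Fabp7 each had a peak within 1 kb, at 33.1- to 49.2-fold. Gata1, Alb, Aif1 and Cdh5, which mark blood, liver, microglia and vessel cells, had none.

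The promoters of the hosts are shown first because most peaks at snoRNA genes lay there. No snoRNA gene was in the RefSeq promoter table, which holds 300-base windows from 250 before to 50 after a start, while 355 of 445 hosts were. The 8 sequences below are the 60 bases before and the first 20 from the listed start of the hosts with the most marked members that the table holds, on the strand of the host (RefSeq, GRCm38.p6). Capitals mark a run of at least 8 C or T that touches the 5 bases either side of the start, as in the terminal oligopyrimidine promoters known from genes of the translation machinery.
Snhg1, chr19:8723427-8723506, plus strand: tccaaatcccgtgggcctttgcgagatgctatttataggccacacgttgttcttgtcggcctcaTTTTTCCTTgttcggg
Gas5, chr1:161035106-161035185, plus strand: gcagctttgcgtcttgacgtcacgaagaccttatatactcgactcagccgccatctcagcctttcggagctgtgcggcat
Rpl13a, chr7:45128726-45128805, minus strand: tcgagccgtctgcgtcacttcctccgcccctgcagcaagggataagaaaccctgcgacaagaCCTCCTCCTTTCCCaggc
Rpl7a, chr2:26910747-26910826, plus strand: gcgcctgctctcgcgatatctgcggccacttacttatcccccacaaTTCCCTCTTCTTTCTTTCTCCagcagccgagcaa
Snhg12, chr4:132308618-132308697, plus strand: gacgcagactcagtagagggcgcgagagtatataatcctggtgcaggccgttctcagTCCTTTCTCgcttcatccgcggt
Eif4a2, chr16:23107408-23107487, plus strand: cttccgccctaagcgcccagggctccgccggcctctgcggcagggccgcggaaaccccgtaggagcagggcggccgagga
Rpl4, chr9:64173327-64173406, plus strand: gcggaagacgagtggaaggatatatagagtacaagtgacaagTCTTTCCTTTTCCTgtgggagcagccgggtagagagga
2410006H16Rik, chr11:62602817-62602896, plus strand: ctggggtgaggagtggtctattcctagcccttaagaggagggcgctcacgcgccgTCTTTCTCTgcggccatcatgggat

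The longest run was 21 bases at Rpl7a, 14 at Rpl13a and at Rpl4, and 9 at Snhg1, Snhg12 and 2410006H16Rik. Gas5, with a run of 6, and Eif4a2, with 4, fell short of 8. Over all 31396 windows on chromosomes 1 to 19, 9.80% held such a run, and over the 13227 windows overlapped by a peak 9.68%. Hosts with a marked snoRNA gene held it in 13 of 69 windows, or 18.8% (95% interval 10.4 to 30.1), and hosts without one in 13.2% (9.93 to 17.1). The run was searched for after the sequences had been seen, and it is given as a description.

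The hexamer TATAAA, on either strand, lay in 24.6% (15.1 to 36.5) of the windows of hosts with a marked snoRNA gene. It lay in 13.6% of all windows and 6.04% of those overlapped by a peak. Kinds of host differed, counted over hosts with and without a marked member. Ribosomal protein hosts held it in 1 of 19 windows, 5.26% (0.133 to 26.0). Hosts named Snhg other than Snhg14, with Gas5, Zfas1 and Epb41l4aos, held it in 5 of 15, 33.3% (11.8 to 61.6). Of the 8 hosts shown only Snhg1 held it, on the strand opposite to the one printed. The octamer ATTTGCAT, known from promoters of small nuclear RNA genes, lay on either strand in 1 of the 69 windows and in 1.75% of all windows. The median number of CG pairs was 24 in the windows of hosts with a marked member, 22 in all windows overlapped by a peak and 7 in all windows.

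A peak lay within 1 kb of 140 of the 1286 snoRNA genes, or 10.9% (9.24 to 12.7). By the same window 36.0% of all RefSeq genes on these chromosomes were marked, 63.1% of coding genes, 24.0% of lncRNA genes and 16.9% of microRNA genes. The gene itself was overlapped in 91 of the 140. The marked members rested on 84 distinct peaks, since 84 members shared their peak with at least 1 other member. These peaks were larger than the list as a whole: their median fold enrichment was 45.4 against 27.97 over all peaks, their median tag count 446.5 against 198, and their median length 2576 bp against 1705 bp. The contrast was smaller against peaks at the starts of coding genes that hold no snoRNA gene, with medians of 39.78-fold and 345 tags.

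The marked genes were nearly all hosted. Of 777 snoRNA genes inside a host, 133 were marked, 17.1% (14.5 to 19.95), and of 509 free-standing genes 7 were, 1.38% (0.555 to 2.81). The difference was 15.7 percentage points (12.9 to 18.6). Genes of 1 host share its promoter and are not replicates of each other. Counting each host once left 78 of 445 hosts with a marked member and a difference of 16.1 points.

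The free-standing group was almost wholly made of predicted genes, which limits that comparison. Of its 509 members 506 rest on model records alone (XR accessions), and 5 of these were marked. Among the 128 members with an official Snord or Snora symbol the direction turned: 62 of 125 hosted genes were marked, and 2 of the 3 free-standing ones, a difference of -17.1 points whose interval ran from -45.6 to 29.6. Those 3 are Snord13, Snord118 and Snord89, and Snord89 lay 6705 bp from the nearest peak.

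**Figure D1:**
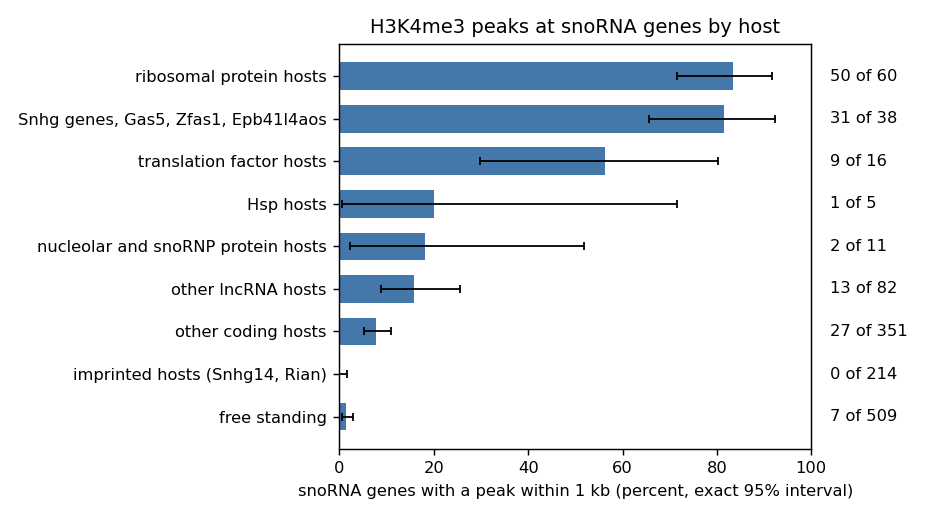
Share of snoRNA genes with an H3K4me3 peak within 1 kb (percent, x axis) by the kind of host gene (y axis), with exact 95% binomial intervals as bars and the counts printed beside them. Members inside ribosomal protein genes (50 of 60) and Snhg-type genes (31 of 38) lie above 80%, and the free-standing (7 of 509) and imprinted (0 of 214) groups lie at or near 0. Snhg14 is counted in the imprinted group and not with the Snhg-type genes.

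Shares differed widely between kinds of host. Ribosomal protein genes held 60 snoRNA genes, of which 50 were marked, 83.3% (71.5 to 91.7). The Snhg-type hosts are the non-coding hosts named Snhg other than Snhg14, with Gas5, Zfas1 and Epb41l4aos. They held 38, of which 31 were marked, 81.6% (65.7 to 92.3). Snhg14, with 203 members and 0 marked, was counted with the imprinted hosts. Hosts with symbols starting Eif or Eef, most of which code for translation initiation or elongation factors, had 9 of 16 marked; Eif2ak3, a kinase of an initiation factor, is among them by its symbol. Hosts of the nucleolar and particle protein list had 2 of 11 marked, and Hsp hosts, which code for heat shock proteins, 1 of 5. All other coding hosts had 27 of 351 marked, 7.69% (5.13 to 10.99), and the remaining lncRNA hosts 13 of 82, 15.9% (8.72 to 25.6). These kinds of host also differed in length. The median was 3230 bp in ribosomal protein hosts and 3069 bp in Snhg-type hosts. It was 78819 bp in all other coding hosts and 30379 bp in the remaining lncRNA hosts. The shares were not compared at equal host length, so they cannot be told apart from it.

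Coding hosts together had 89 of 443 members marked, 20.1%, and lncRNA hosts 44 of 334, 13.2%. The sign of that difference turned on 2 imprinted loci. With them it was 6.92 points higher in coding hosts (1.59 to 12.0), and without the imprinted hosts lncRNA members were marked in 44 of 120, 36.7%, a difference of -16.6 points (-26.1 to -7.57). Inside Snhg14, the long transcript of the Snurf-Snrpn locus on chromosome 7, lay 203 snoRNA genes, and inside Rian, the imprinted transcript on chromosome 12, lay 11.

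None of these 214 genes was marked, which would allow a share of up to 1.71% if they were independent. They lie in Snhg14 and Rian alone, so they are not. The gap from a Snhg14 member to the nearest peak ran from 22364 to 385619 bp, with a median of 244601 bp. Snhg14 had no peak at its own annotated start. Of the 3 peaks over it, the strongest (22.4-fold, 192 tags) was at the start of Snurf. Rian had no peak over the gene, and its 11 members lay 562298 to 588349 bp from the nearest one. The 17 genes named Snord116 were among the Snhg14 members, and no member carried a Snord115 symbol. Ipw, a non-coding gene in the same locus on chromosome 7, held 3 more unmarked members, counted with the remaining lncRNA hosts. The sequences of these members were not compared, and no source used here says how reads with several matches were placed. Where members are near-identical copies, a missing peak over a copy is thus uncertain.

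The hosts differed from other genes of their kind. A peak lay within 1 kb of an end of 268 of 353 coding hosts, 75.9%, where 57.8% of all coding genes had one. Against the coding genes that hold no snoRNA gene the difference was 18.5 points (13.7 to 22.7). Among lncRNA hosts it was 34 of 92, 37.0%, where 20.3% of all lncRNA genes had one, and the difference from lncRNA genes without a snoRNA gene was 16.8 points (7.58 to 27.0). Outside the Snhg-type and imprinted hosts, the remaining lncRNA hosts had one in 20 of 75, 26.7% (17.1 to 38.1). That interval holds the 20.2% of lncRNA genes without a snoRNA gene. All other coding hosts had one in 225 of 310, 72.6% (67.3 to 77.5), beside 57.5% of coding genes without a snoRNA gene. Each of the 29 ribosomal protein hosts and 9 Eif or Eef hosts had an end peak, and 14 of the 15 Snhg-type hosts did. Snhg14, which is not among those 15, had no end peak.

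Each of the 78 hosts with a marked member also had a peak at an end of the host (an exact interval of 95.4 to 100%). The reverse did not hold: 281 of the 414 members inside a host with an end peak were unmarked. These hosts also differed in length. The median was 3972 bp in hosts with a marked member (quartiles 2659 and 6469 bp) and 70271 bp in hosts with an end peak and no marked member (29502 and 160184 bp). Marked members lay a median of 923 bp from the nearer end of the host. In a short host a peak near a member also comes near an end. The count of 78 and the contrast in length are thus set in part by the windows.

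The share was highest within 2 kb of the start of the host and lower beyond. Strand, and so the start, was known for hosts of 669 members. Within 1 kb of the annotated start of the host 33 of 41 snoRNA genes were marked, and 1 to 2 kb from it 43 of 46. From 2 to 5 kb the count was 30 of 79, 38.0% (27.3 to 49.6), and from 5 to 20 kb 1 of 102. Beyond 20 kb it was 0 of 401, which would allow a share of up to 0.916% if the genes were independent. They are not, since 203 of them lie inside Snhg14 and 11 inside Rian.

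The same held where the host had a peak at its start. There 32 of 32 members within 1 kb were marked, 43 of 43 at 1 to 2 kb, 29 of 67 at 2 to 5 kb, 1 of 70 at 5 to 20 kb and 0 of 118 beyond. The first of these counts is set in part by the windows, since a peak within 1 kb of the start must also come close to a gene within 1 kb of it. Overlap of the gene itself leaves out the kb around the gene. It fell from 31 of 32 to 31 of 43, then 9 of 67, and then 0 of 70 and 0 of 118. These hosts were still chosen by a peak within 1 kb of the start, so the fall follows in part from that choice.

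**Figure D2:**
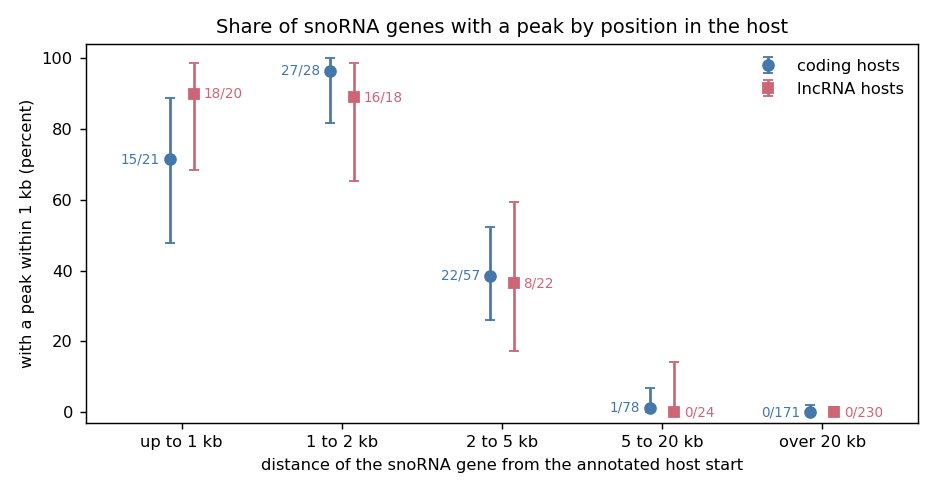
Share of snoRNA genes with a peak within 1 kb (y axis, percent) by the distance from the annotated start of the host (x axis, bands in kb), for coding hosts (circles) and lncRNA hosts (squares), with exact 95% intervals as bars and counts beside the points. In both kinds of host the share lies above 70% up to 2 kb, at 38.6% (coding) and 36.4% (lncRNA) from 2 to 5 kb, and at or near 0 beyond.

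MicroRNA genes are another class of small RNA often found inside hosts. In coding hosts 39 of 44 microRNA genes were marked within 1 kb of the start, 22 of 26 at 1 to 2 kb and 25 of 68 at 2 to 5 kb, beside 15 of 21, 27 of 28 and 22 of 57 snoRNA genes. From 5 to 20 kb it was 8 of 162 microRNA genes and 1 of 78 snoRNA genes, and beyond 20 kb 10 of 338 and 0 of 171. Hosted genes of both classes were marked at shares that differed by 1.12 points (-2.44 to 4.72). Without the imprinted hosts the shares were 133 of 563 snoRNA genes and 143 of 879 microRNA genes, and the difference was 7.35 points (3.14 to 11.7). Free-standing ones differed more: 49 of 242 microRNA genes, 20.2%, against 7 of 509 snoRNA genes, a difference of -18.9 points (-24.4 to -14.1).

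For marked members of hosts with a known strand, the peak at the snoRNA gene was the peak at the annotated start of the host in 103 of 107 cases. The gene lay downstream of the summit, in the direction of the host, in 101 of 107, at a median of 1127 bp (quartiles 604 and 1691 bp). Both counts are set in part by the windows and the hosting rule. A hosted gene always lies downstream of the annotated start, and these marked members lay a median of 1555 bp from it. The exceptions at no listed start were 3. Snord93 inside Gm42228 was one. Snora57 was another, inside the coding gene Lbhd1 and also inside a shorter lncRNA gene, 5730408K05Rik. The last was LOC115487312 inside Ppan, a ribosome biogenesis gene, where the peak was a small one of 13.0-fold and 34 tags.

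The reach of the start peaks was also measured. The peak ended a median of 1659 bp inside the gene in coding hosts (quartiles 1274 and 2074 bp) and 1387 bp inside coding genes without a snoRNA gene (1083 and 1882 bp). The median fold enrichment of these start peaks was 41.95 in hosts and 39.78 in the others. The quartiles of both measures overlapped.

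**Figure D3:**
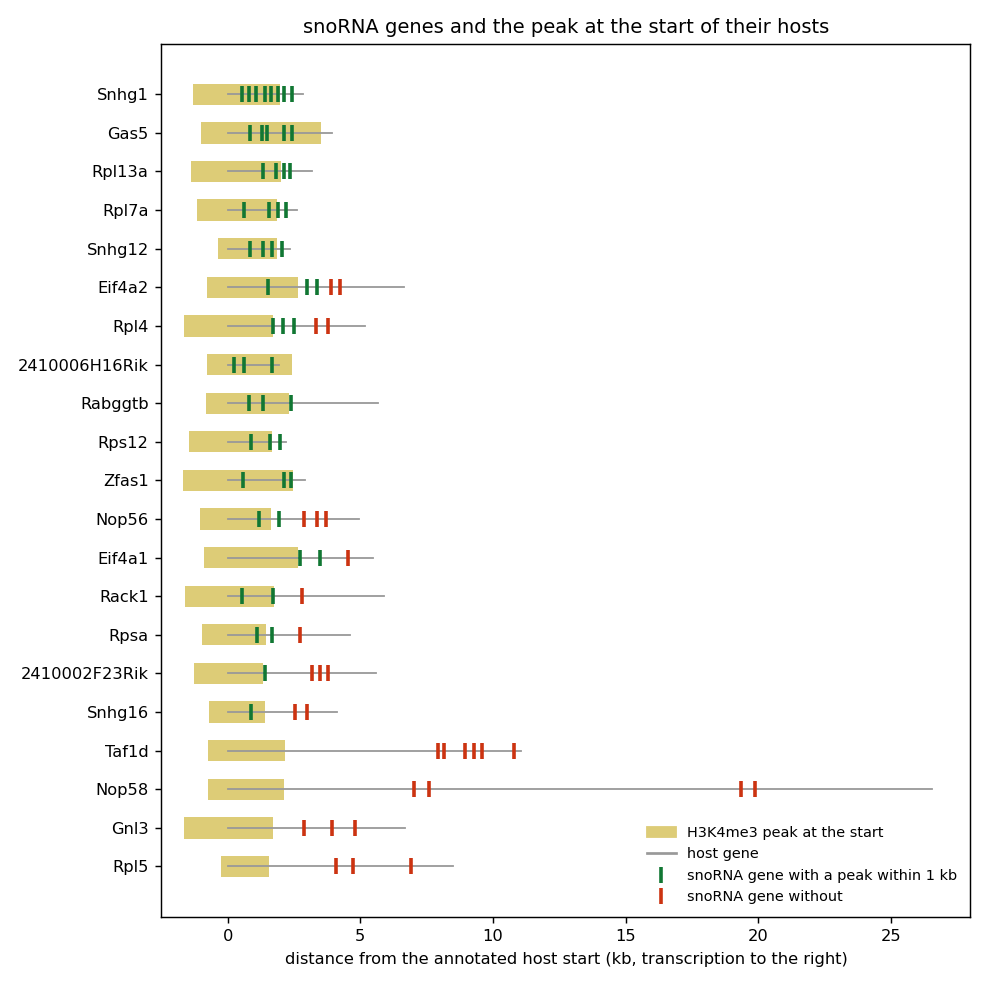
The 21 hosts of known strand with at least 3 members, a start peak and a length of at most 30 kb, 1 per line of the y axis, aligned at the annotated start (x axis, kb from the start, transcription to the right). Grey lines are hosts, yellow bars their start peaks and ticks the snoRNA genes, green where marked and red where not: green ticks lie under or just past the bars, and all ticks of Taf1d, Nop58, Gnl3 and Rpl5 lie further downstream and are red.

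Snhg1, a non-coding gene on chromosome 19 whose introns hold box C/D snoRNAs, had the most marked members. All 8 were marked by 1 peak of 45.2-fold and 559 tags. They lay 506 to 2379 bp from the start of a host 2840 bp long, and the last, Snord22, was 416 bp beyond the end of the peak. Gas5, a growth-arrest non-coding gene, had 5 of 5 members under 1 peak of 31.7-fold and 857 tags. Snhg12 had 4 of 4 marked at 28.9-fold and 2410006H16Rik, another non-coding host, 3 of 3 at 42.0-fold.

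Among coding hosts Rpl13a and Rpl7a, both ribosomal protein genes, had 4 of 4 members marked. The peaks stood at 69.4-fold for Rpl13a and 45.6-fold for Rpl7a. Snord32a and Snord33 were overlapped by the Rpl13a peak, and Snord34 and Snord35a, further from the start, lay 48 and 281 bp past it. This order, overlap first and gap later, was that of the start-to-end direction of the host.

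The highest fold enrichment over any member, 69.4, was shared by the Rpl13a peak and that of Eif4a2, an RNA helicase of translation initiation. Snord2 in Eif4a2 lay 1485 bp from the start and was overlapped, LOC115488690 lay 250 bp and Snora81 637 bp past the peak, and 2 more members of Eif4a2 were unmarked. The 3 members in Rpl17 came next at 65.8-fold. At the low end Gm23034, in the inositol phosphate kinase gene Ip6k2, was at 7.96-fold and 27 tags. It lay 11476 bp from the annotated start and 606 bp from another listed start.

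**Figure D4:**
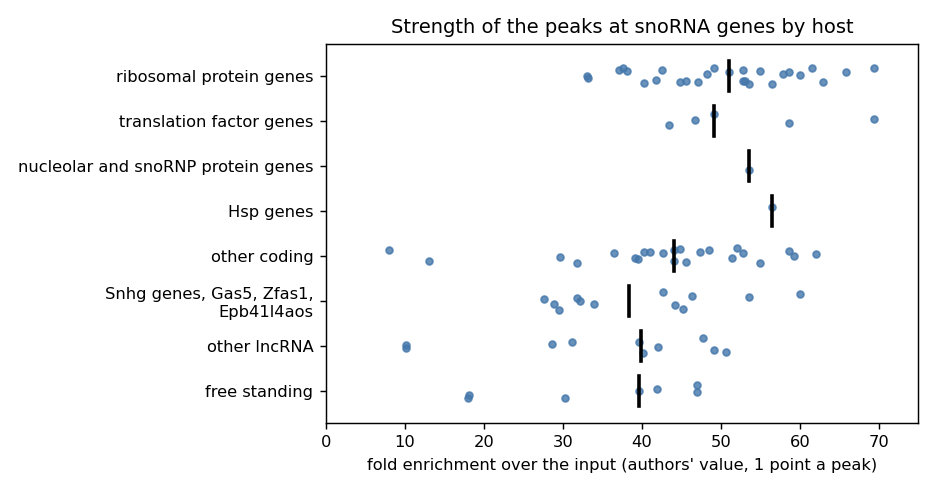
Fold enrichment over input (the authors' value, x axis) of the distinct peaks within 1 kb of snoRNA genes, by kind of host (y axis). Each point is 1 peak, moved up or down at random for sight, and the vertical bar is the median. Ribosomal protein hosts have 27 peaks from 33.1 to 69.4 with a median of 51.0, and Snhg-type hosts 12 peaks from 27.6 to 60.03 with a median of 38.3.

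Some hosts held marked and unmarked members side by side. There were 15 such hosts among the 68 with at least 2 members, beside 22 with all members marked and 31 with none. In 13 of the 15 the strand was known, and in each of those 13 every marked member was nearer the start than every unmarked one. With 1 peak at the start this order follows from the geometry of the host. Rpl4 is an example: 3 members were marked by its peak of 33.2-fold, and Gm23136 and LOC115487261 each lay 1581 bp from a peak. Nop56, a core protein of box C/D particles, had 2 of 5 marked, the coding gene 2410002F23Rik 1 of 4, and Rack1, a protein of the small ribosomal subunit, 2 of 3.

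Other hosts had a start peak and only unmarked members. Nop58, the partner of Nop56 in box C/D particles, had a start peak of 55.7-fold, but its 4 members lay 4859 to 17709 bp from any peak. Taf1d, a factor of RNA polymerase I transcription, had a start peak of 50.6-fold and 6 unmarked members at 5705 to 8579 bp. Gnl3, a nucleolar GTPase, had one of 57.3-fold and 3 unmarked members at 1146 to 3067 bp. Rpl5 was the ribosomal protein host with the most unmarked members, 3 of 3, at 2490 to 5280 bp from its peak of 37.9-fold. Robo2, an axon guidance receptor gene, had no end peak, and its 3 members lay 172923 to 289232 bp from the nearest peak.

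The values on either side of the 1 kb limit were close. Just inside it were Gm24949 at 972 bp, LOC115487312 at 929 bp, Snora28 in Eif5 at 905 bp, Snord7 at 890 bp and Snord14c at 839 bp. Just outside were Snord95 in Rack1 at 1043 bp, Gm23855 at 1049 bp, Gm24230 at 1082 bp, Snord1b in Snhg16 at 1085 bp and Snord19 in Gnl3 at 1146 bp. In all, 38 members lay over 1 and up to 2 kb from a peak.

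The snoRNAs that act in cleavage of the ribosomal precursor were looked at by name. Snora73a and Snora73b, the U17 genes, were both overlapped by the peak of their host Snhg3, at 33.99-fold. Of the U14 genes, Snord14a in Rps13 was overlapped at 61.5-fold. The other 3 sit in Hspa8, the constitutive heat shock chaperone, where Snord14c was marked at 56.4-fold and Snord14d and Snord14e lay 1251 and 2004 bp from the peak. Copies of 1 family were thus marked in some places and unmarked in others.

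All 7 free-standing members with a peak are given here. Snord13, the U13 gene at chr8:31149861-31149958, was overlapped by a peak of 47.0-fold and 412 tags. Snord118, the U8 gene at chr11:69073426-69073562, was overlapped by one of 17.9-fold and 85 tags. Both are transcribed from promoters of their own, as background, but each also had a coding neighbour: Tti2 lay 358 bp from Snord13, and Tmem107, a gene of the ciliary base, 133 bp from Snord118. The peak at each was also within 1 kb of an end of that neighbour, so peaks of the snoRNA gene and the neighbour cannot be told apart.

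The other 5 are predicted genes. Gm24949 was at 47.0-fold, with the peak at an end of Snf8, and Gm26306 at 41.95-fold, with the peak at an end of Slc37a4, the glucose-6-phosphate carrier. Gm22711 was overlapped at 39.6-fold, 34 bp from the lncRNA gene Gm36220 and 762 bp from the coding gene Tex2, with the peak at an end of each. Gm25857 was at 30.2-fold beside Itpka. Gm22267 was overlapped by a peak of 18.1-fold and 49 tags whose nearest neighbour gene, Hyal5, lay 2711 bp away. Of the 7 peaks it was the 1 that was at no end of a coding or lncRNA gene, and the other 6 were at one.

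By class, 23 of 36 genes named Snora (box H/ACA) were marked, 63.9% (46.2 to 79.2), and 41 of 92 named Snord (box C/D), 44.6% (34.2 to 55.3). The difference was 19.3 points, with an interval from 0.0989 to 36.1. It rested in part on the 18 Snord genes inside Snhg14, all unmarked: without them 41 of 74 Snord genes were marked, 55.4%, and the difference was 8.48 points, with an interval from -11.1 to 26.2. Genes known only by a Gm number were marked in 28 of 874, 3.20%, and those with a LOC number in 47 of 274, 17.2%. Curated records (NR) were marked in 64 of 122, 52.5%, and model records in 76 of 1163, 6.53%. Whether the model genes are transcribed was not tested.

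The proteins that assemble snoRNA particles were listed apart from the snoRNA genes. Of 26 such genes 25 had a peak within 1 kb of an end, 96.2% (80.4 to 99.9), beside 57.8% of all coding genes. Their median fold enrichment was 43.9. The highest were Nolc1, a nucleolar chaperone of the particles, at 62.2-fold, Nop58 at 55.7, Nop56 at 53.5 and Wrap53, which brings RNAs to Cajal bodies, at 52.8. The lowest was Dkc1, the pseudouridine synthase of box H/ACA particles on chromosome X, at 19.5-fold. Pih1d1, a subunit of the assembly complex with Hsp90, had no peak at an end, but one of 44.8-fold within the gene.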

How the data were processed

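The deposited peak list holds position and summit of each peak and its tag count, which is not normalized, per the file headers. The deposited score is 10 times −log10 of the caller's p-value. Fold enrichment, a ratio to the input, and the false discovery rate, in percent, are likewise the authors' values. Peaks were called by the authors with MACS 1.4.2 on 1 library against the input (p cutoff 1e-05, at most 1 tag per position), per the file headers. The submitters' processing notes name MACS2 2.1.0 and the build mm10. No source used here names the aligner. Keeping 1 tag per position limits counts in strong peaks, and a gene without a peak is one without a called peak at this depth.

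Peaks were joined to the RefSeq gene table of GRCm38.p6 in Python 3.11.15 (pandas 2.3.3, scipy 1.17.1, statsmodels 0.14.6). The host was the shortest coding gene spanning the snoRNA gene, or else the shortest such lncRNA gene; 15 members in coding hosts also lay in a shorter lncRNA gene. Strand and starts came from the RefSeq promoter table, so 90 hosts with 108 members have no strand, and the gene table gives no exons. Intervals are 95%, exact (Clopper-Pearson) for shares and Newcombe's for differences. No p-value was computed. The joins were tested on simulated data.

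The members, lists and tests were chosen with earlier results of these data known. Named genes are, by rule, the 10 hosts with the most marked and the most unmarked members, all marked free-standing genes, the 10 members with the highest fold enrichment, the 5 nearest on each side of the 1 kb limit, fixed families, and of the particle proteins the top 4 and those without a peak. Other names (the lowest values, the exceptions, Rpl5) were chosen after their values were seen, and some genes that the rule names are not reported here. The planned motif counts in snoRNA promoters could not be made, because that table holds 0 snoRNA genes, and host windows were used instead.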

Additional observations from a re-analysis of the deposited data

Results flagged for a closer look

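3 groups of related genes outside the rule also had peaks, called above the input. The U3 genes, whose RNA is a box C/D snoRNA but which the annotation lists as snRNA, had a peak within 1 kb in 4 of 5. Rnu3a was overlapped at 41.7-fold (432 tags), while Rnu3b3, Rnu3b2 and Rnu3b4 stood at 18.8-, 11.7- and 7.23-fold with 43, 28 and 19 tags, each 171 to 178 bp from its peak. The Rnu3b genes are near-identical copies, and the placement of reads between them is uncertain.

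Genes of the biotype guide RNA, among them the Cajal body RNAs, had a peak in 5 of 37. These were Scarna13 at 41.95-fold, Scarna17 and Gm23119 under 1 peak of 39.1-fold, Scarna2 at 34.5-fold and Scarna6 at 6.51-fold. On chromosome X, which the rule leaves out, 3 of 54 snoRNA genes had a peak: Snora70 at 42.7-fold, Snord61 at 30.4-fold and Snora69 at 27.6-fold.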

How the results depend on the processing

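No paired analysis was possible because there is 1 library per group. Of 56 values recomputed under alternatives, 31 stayed within the interval of the value reported, 22 moved beyond it and 3 changed sign. The share marked (10.9%) was 7.08% when the gene itself had to be overlapped, 13.8% with 2 kb and 4.90% with summits in place of peaks. The hosted minus free-standing difference (15.7 points) was 10.4, 18.7 and 6.81 under the same 3 settings. With official symbols only, the share was 50% and the difference -17.1 points. With curated records only, chosen after seeing the data, they were 52.5% and -14.6 points. Both sign changes rest on 3 free-standing genes. Leaving out members inside Snhg14, Ipw and Rian, also chosen after seeing the data, gave 13.1% and 22.4 points. Leaving out imprinted hosts, chosen likewise, turned the coding minus lncRNA host difference from 6.92 to -16.6 points and moved the hosted snoRNA minus microRNA difference from 1.12 to 7.35 points. The share within 1 kb of a host end (75.5%) was 57.1% with overlap of the gene, 42.9% with summits and 91.3% with official symbols or with curated records. Beyond 5 kb from an end (0.189%) it was 0 with overlap of the gene, a 500 bp window, a -log10 p of at least 10, a fold of at least 10, official symbols or curated records. The share of hosts with an end peak (67.9%) was 61.6% with summits. Leaving out replicates was not run, since there are none.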

Other observations

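The share of marked snoRNA genes differed between chromosomes. Chromosome 19 had 9 of 27 marked, 33.3% (16.5 to 54.0), and 8 of the 9 are the members of Snhg1. Chromosome 11 had 18 of 74, 24.3% (15.1 to 35.7), and chromosome 14 had 1 of 57, 1.75% (0.0444 to 9.39). Chromosome 7 held 260 snoRNA genes, of which 13 were marked, 5%, and 203 of the 260 lie inside Snhg14. These shares were not tested against each other.

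The median length of marked hosted members was 80 bp (quartiles 68 and 129 bp), that of all unmarked hosted members 122 bp (79 and 132 bp) and that of free-standing ones 132 bp (129 and 137 bp). The ranges between the quartiles of marked and unmarked hosted members overlapped. Without the imprinted hosts the unmarked median was 131 bp (122 and 135 bp). The defensin genes (Defa) held 5 predicted snoRNA genes, and 0 of the 5 were marked.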
